A study of Mus musculus with 6 samples.

Results

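The S6 kinase and RSK family was followed in the dental pulp of mouse molars with and without deletion of *Ror2*, which encodes a receptor tyrosine kinase-like receptor for Wnt5a. Its 10 members were taken by gene symbol from the 27506 genes of the count table: *Rps6kb1* and *Rps6kb2* (the p70 S6 kinases), *Rps6ka1*, *Rps6ka2*, *Rps6ka3* and *Rps6ka6* (the ribosomal S6 kinases, RSK), *Rps6ka4* and *Rps6ka5* (the mitogen- and stress-activated kinases, MSK), and the divergent relatives *Rps6kc1* and *Rps6kl1*. RNA-seq had been performed on dental pulp of mandibular first molars at postnatal day 3.5 (P3.5), with 3 control and 3 mutant libraries compared here. Control mice were labelled *Ror2fl/fl* and mutant mice *Osr2-Cre;Ror2fl/fl*, both on C57BL/6. By these genotype labels, the floxed alleles were shared and only the mutants carried Cre. Cre was driven from *Osr2*, a gene of the dental mesenchyme. Whether each library came from a separate animal is not stated in the labels, so that p-values measure the spread between libraries, which may be technical. The labels used here also name no sequencing run or preparation, and any difference in these between the groups cannot be told apart from genotype.

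The p70 S6 kinases act downstream of mTOR complex 1 and PDK1, and phosphorylate ribosomal protein S6 and other proteins that control translation and cell growth. RSKs are activated by MAP kinases and PDK1, and MSKs by mitogen- and stress-activated MAP kinases. RSKs phosphorylate targets in the cytoplasm and nucleus, whereas MSKs phosphorylate CREB and histone H3 in the nucleus. These 3 branches are AGC kinases regulated mainly by phosphorylation, which mRNA levels do not measure.

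The families are old gene duplicates, and whether a read can be assigned to one member depends on the bases that differ. To show this, 1 stretch of 75 coding bases, the read length, is given for each of 3 pairs of relatives in which *Rps6kb1*, *Rps6ka3* or *Rps6ka5*, each lower in the mutants, is set against a relative in the same branch. Coordinates are mm10, bases run 5′ to 3′ in the direction of the gene, and capitals mark the positions at which the members of a pair differ.
Rps6kb1, chr11:86519893-86519967, minus strand: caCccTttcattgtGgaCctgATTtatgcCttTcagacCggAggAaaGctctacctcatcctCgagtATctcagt
Rps6kb2, chr19:4161069-4161143, minus strand: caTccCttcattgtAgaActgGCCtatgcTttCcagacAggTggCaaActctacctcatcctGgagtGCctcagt
Rps6ka3, chrX:159345346-159345420, plus strand: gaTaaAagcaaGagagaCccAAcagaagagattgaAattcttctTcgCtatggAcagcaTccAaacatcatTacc
Rps6ka1, chr4:133860520-133860594, minus strand: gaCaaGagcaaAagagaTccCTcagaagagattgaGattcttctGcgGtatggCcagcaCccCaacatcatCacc
Rps6ka5, chr12:100558449-100558523, minus strand: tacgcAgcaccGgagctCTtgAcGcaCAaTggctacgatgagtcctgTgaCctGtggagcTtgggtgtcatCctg
Rps6ka4, chr19:6830991-6831065, minus strand: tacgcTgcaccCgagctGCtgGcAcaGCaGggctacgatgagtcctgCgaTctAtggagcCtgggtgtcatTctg
The S6 kinase stretches lie in exon 5 of both genes and differed at 16 positions. The RSK stretches lie in exon 16 of *Rps6ka3* and exon 15 of *Rps6ka1* and differed at 13 positions, and the MSK stretches lie in exon 15 of *Rps6ka5* and exon 14 of *Rps6ka4* and differed at 14 positions. No stretch of 75 bases was shared between the annotated transcripts of any pair of the 10 members, so reads of that length that match perfectly distinguish them. In each pair the member that was lower in the mutants had the lower share of G and C in its stretch, 48% against 50.7%, 40% against 49.3% and 57.3% against 60%.

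All 10 members passed the filter on low counts. In the mutants, *Rps6kb1*, *Rps6ka3*, *Rps6ka6* and *Rps6ka5* fell at a Benjamini-Hochberg adjusted p under 0.05 (edgeR, quasi-likelihood), none rose, and 6 passed in neither direction. Of all 19330 genes tested, 9.84% fell and 10.4% rose by this test, 20.2% in all. DESeq2 called 1 member higher, *Rps6kb2*, and 5 lower, *Rps6ka2* among them. It also called more genes in all, 2711 higher and 2699 lower of the 19330, against 2003 and 1903 in edgeR. The median log2 fold change of the members was −0.23, against 0.01 over all genes tested. The groups did not overlap for 7 of the 10 members, against 44.7% of all genes tested. Without control 2 or without control 3, no member passed in edgeR, and the 3906 genes called became 910 and 872. Values are CPM, reads of a gene scaled to the library's total with TMM factors, in order of library 1, 2 and 3 of each group, and libraries are numbered by the sample index in their labels. Control 1 carries another letter code in its label than controls 2 and 3, with no explanation of the codes.

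**Figure D1:**
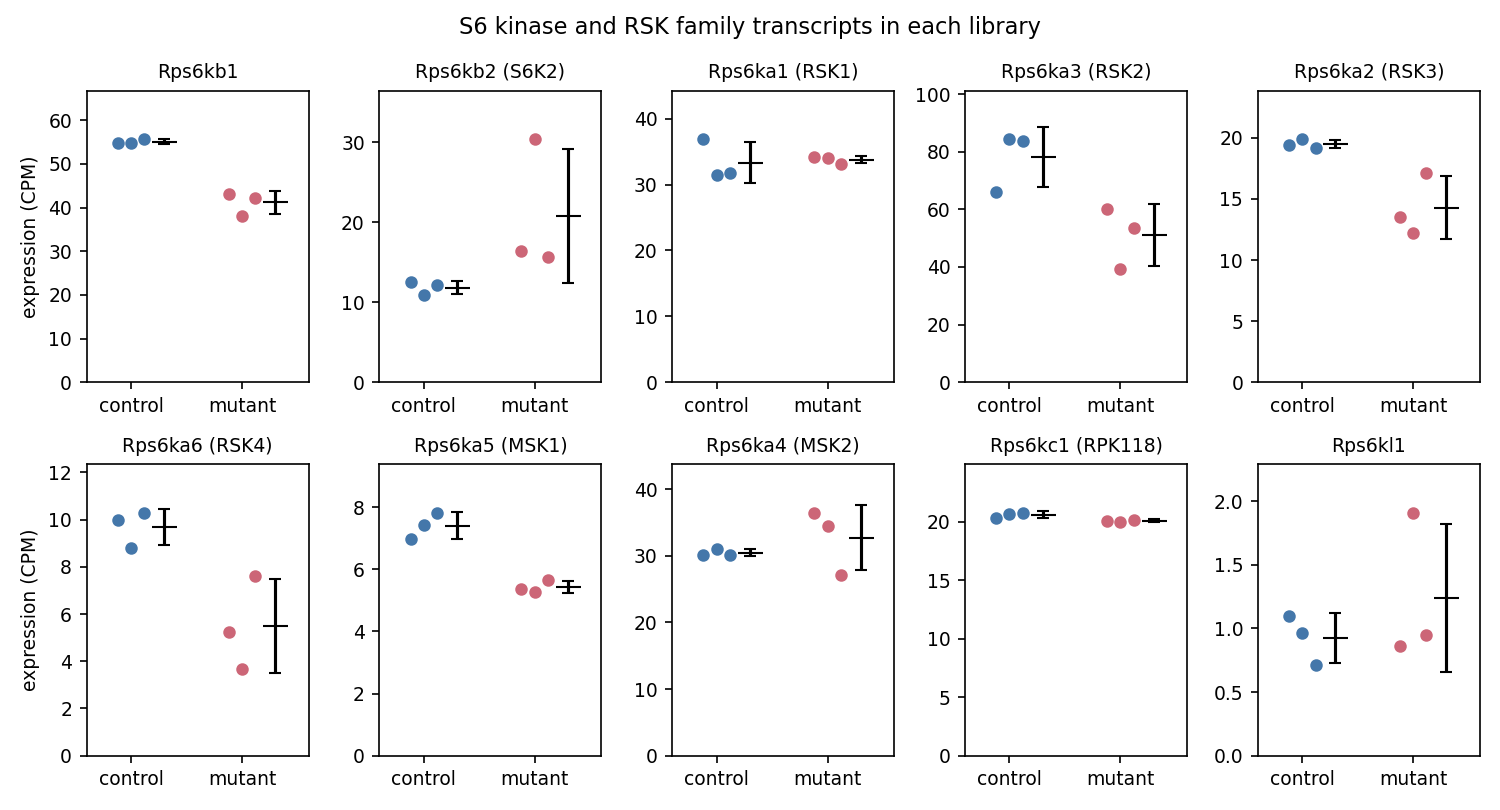
TMM-scaled CPM of each of the 10 members in the 3 control and 3 mutant libraries, 1 panel per gene with its own axis starting at 0, points for libraries and bars for mean ± SD (n = 3). The 3 mutant libraries lie below the 3 control libraries for Rps6kb1, Rps6ka3, Rps6ka2, Rps6ka6, Rps6ka5 and narrowly for Rps6kc1, and above them for Rps6kb2.

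Of the S6 kinases, *Rps6kb1* (ENSMUSG00000020516.15, chr11:86498871-86544805, minus strand) encodes S6K1, a kinase of ribosomal protein S6. It was counted at 54.8, 54.8 and 55.7 CPM in the controls and at 43.1, 38.1 and 42.2 CPM in the mutants. The groups were separate, and the control libraries lay closer together (55.1 ± 0.561, SD, n = 3) than the mutant libraries (41.2 ± 2.67, SD, n = 3). The log2 fold change was −0.42 (SE 0.09, 95% interval −0.62 to −0.22, adjusted p = 0.016 in edgeR). Without control 2 it was −0.43 (edgeR adjusted p = 0.0783) and without control 3 it was −0.42 (edgeR adjusted p = 0.089). *Rps6kb1* shares 155 exonic bases with *Rnft1* on the opposite strand, and *Rnft1* fell as well, from 22.9 to 15.4 CPM (log2 fold change −0.57, edgeR adjusted p = 0.0301). Only 0.899% of the 75-base stretches of *Rps6kb1* are shared with another gene, and the sum of both genes had a log2 fold change of −0.46 (edgeR adjusted p = 0.0151).

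*Rps6kb2* (ENSMUSG00000024830.17, chr19:4153991-4163354, minus strand) encodes S6K2, which also phosphorylates ribosomal protein S6. It was counted at 12.5, 10.9 and 12.1 CPM in the controls and at 16.4, 30.4 and 15.6 CPM in the mutants. All mutant libraries were higher than all controls, with mutant 2 far above the others. The log2 fold change was 0.81 (SE 0.25, 95% interval 0.25 to 1.38) and narrowly missed the threshold (edgeR adjusted p = 0.0504). Without mutant 2 it was 0.44 and passed (edgeR adjusted p = 0.0299), and without mutant 3 it was 0.98 (edgeR adjusted p = 0.0294). Exons of *Rps6kb2* share 1224 bases with *Ptprcap* and 45 with *Coro1b*, both on the opposite strand, and 17.5% of its 75-base stretches lie in other genes. Mutant 2 was also the highest library for both neighbours, at 0.485 CPM for *Ptprcap* and 108 CPM for *Coro1b*. The sum of the 3 genes, led by *Coro1b*, had a log2 fold change of 0.26 (edgeR adjusted p = 0.217). Strand use in the counting is not stated, so reads of these genes and of *Rps6kb2* cannot be told apart where they overlap.

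The ratio of the S6 kinases restates the values above. *Rps6kb1* was lower and *Rps6kb2* higher in all mutant libraries than in all controls, so the ratio had to separate the groups. Per kilobase of exon, the ratio of *Rps6kb1* to *Rps6kb2* was 2.61, 2.99 and 2.75 in the controls and 1.57, 0.747 and 1.61 in the mutants. The 3 control ratios lay above the 3 mutant ratios, and in mutant 2 *Rps6kb2* exceeded *Rps6kb1*. The log2 ratio was 1.48 ± 0.1 in controls and 0.31 ± 0.63 in mutants (SD, n = 3). The two-sided exact permutation p was 0.1, the smallest that 3 against 3 libraries allow, and it was fixed by the separation of both genes.

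Of the RSKs, *Rps6ka3* (ENSMUSG00000031309.15, chrX:159210307-159368244, plus strand) encodes RSK2, the kinase mutated in Coffin-Lowry syndrome. Control libraries held 66, 84.4 and 83.8 CPM and mutant libraries 60.3, 39.4 and 53.6 CPM. The groups were separate, although control 1 and mutant 1 lay close together, with a log2 fold change of −0.61 (SE 0.17, 95% interval −1 to −0.23, adjusted p = 0.0388 in edgeR). It missed the threshold without control 2 (−0.56, edgeR adjusted p = 0.138), control 3 (−0.57, 0.136) or mutant 3 (−0.65, 0.0558). No other gene shares its exons or 75-base stretches.

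*Rps6ka6* (ENSMUSG00000025665.16, chrX:111388192-111537959, minus strand) encodes RSK4. Control libraries held 9.97, 8.82 and 10.3 CPM and mutant libraries 5.23, 3.67 and 7.63 CPM. The groups were separate, and the mutant libraries were spread more widely (5.51 ± 1.99, SD) than the controls (9.68 ± 0.766, SD). The log2 fold change of −0.81 (SE 0.24, 95% interval −1.37 to −0.26) was the largest among the members that passed (edgeR adjusted p = 0.048). It kept its side of the threshold only without mutant 3 (−1.13), and with any other library left out it lay between −0.58 without mutant 2 (edgeR adjusted p = 0.0599) and −0.88 without control 2 (edgeR adjusted p = 0.113). The values were −0.80 without control 1, −0.78 without control 3 and −0.78 without mutant 1, with edgeR adjusted p of 0.108, 0.148 and 0.114.

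*Rps6ka2* (ENSMUSG00000023809.10, chr17:7170115-7303315, plus strand) encodes RSK3. It was counted at 19.4, 19.9 and 19.2 CPM in the controls and at 13.5, 12.2 and 17.1 CPM in the mutants. All mutant libraries were lower than all controls, and mutant 3 was nearest to them. The log2 fold change of −0.45 (SE 0.14, 95% interval −0.76 to −0.13) just missed the threshold (edgeR adjusted p = 0.0521). It passed with DESeq2 (adjusted p = 0.0206), edgeR's likelihood ratio test (0.0304), limma voom (0.0164) and the stricter filter on low counts (0.0498), and without mutant 3 it was −0.60 and passed (edgeR adjusted p = 0.0119). About 15% of its 75-base stretches lie in other genes, *Sod2* among them. Summed with those of these genes in the count table that share at least 20 stretches, it was at 0.08 (edgeR adjusted p = 0.552). The turn came from *Usmg5*, which shares only 22 stretches with *Rps6ka2* and rose from 12.4 to 34.6 CPM (log2 fold change 1.48, edgeR adjusted p = 0.00095), whereas *Sod2* was at 69.3 and 60.8 CPM and *Zw10* at 17 and 15.1 CPM.

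*Rps6ka1* (ENSMUSG00000003644.17, chr4:133847290-133887797, minus strand) encodes RSK1. Its level was 36.9, 31.4 and 31.7 CPM in the controls and 34.2, 34 and 33.1 CPM in the mutants. The mutant values lay inside the range of the controls, and the log2 fold change was 0.02 (SE 0.1, 95% interval −0.20 to 0.24, adjusted p = 0.899 in edgeR). Without control 2 it was −0.03 and without control 3 it was −0.02. *Gm12977*, an antisense gene of 0.201 CPM in controls, shares 104 of its 75-base stretches.

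Of the MSKs, *Rps6ka5* (ENSMUSG00000021180.9, chr12:100548439-100726983, minus strand) encodes MSK1. It was counted at 6.96, 7.41 and 7.82 CPM in the controls and at 5.36, 5.27 and 5.64 CPM in the mutants. The groups were separate, and both varied little, with a log2 fold change of −0.45 (SE 0.12, 95% interval −0.73 to −0.16, adjusted p = 0.0391 in edgeR). Of the alternatives that left out 1 library, *Rps6ka5* passed only without mutant 3. The values were −0.50 without control 1 (edgeR adjusted p = 0.0536), −0.45 without control 2 (0.146), −0.41 without control 3 (0.17), −0.44 without mutant 1 (0.0761) and −0.42 without mutant 2 (0.0573). All of these lay within the interval above, but these fits share most libraries with the full fit, so this is no separate support. Summed with *Gm49703*, which overlaps it, *Rps6ka5* was at −0.44 (edgeR adjusted p = 0.0412).

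*Rps6ka4* (ENSMUSG00000024952.13, chr19:6829085-6840636, minus strand) encodes MSK2. Its level was 30.1, 31.1 and 30.2 CPM in the controls and 36.5, 34.5 and 27.2 CPM in the mutants. Mutants lay on both sides of the controls, and the log2 fold change was 0.10 (SE 0.12, 95% interval −0.17 to 0.38, adjusted p = 0.559 in edgeR). About 15.3% of its 75-base stretches lie in other genes, and the sum with them gave a log2 fold change of 0.08.

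Of the divergent relatives, *Rps6kc1* (ENSMUSG00000089872.10, chr1:190700202-190911770, minus strand) encodes RPK118, a protein that binds phosphoinositides. It was counted at 20.3, 20.7 and 20.8 CPM in the controls and at 20.1, 20 and 20.2 CPM in the mutants. All mutant values lay below the controls, but by little, and the log2 fold change was −0.04 (SE 0.09, 95% interval −0.24 to 0.17, adjusted p = 0.797 in edgeR). *Rps6kl1* (ENSMUSG00000019235.9, chr12:85135249-85151264, minus strand), the S6 kinase-like gene, was counted at 1.1, 0.961 and 0.713 CPM in the controls and at 0.863, 1.91 and 0.949 CPM in the mutants. The groups overlapped, and its counts were low, between 44 and 110 in each library. The log2 fold change was 0.42 (SE 0.36, 95% interval −0.40 to 1.24, adjusted p = 0.418 in edgeR), and −0.02 without mutant 2, the highest library.

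**Figure D2:**
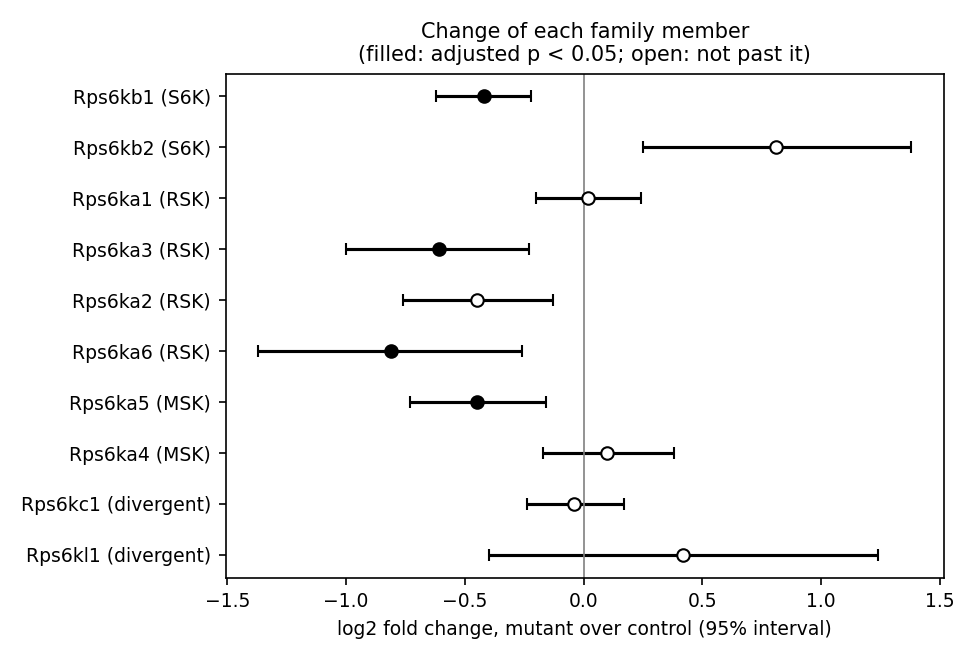
Log2 fold change, mutant minus control, of each member with its 95% interval, from edgeR's quasi-likelihood test. Rps6kb1, Rps6ka3, Rps6ka6 and Rps6ka5 lie left of 0 and pass the threshold, Rps6ka2 and Rps6kb2 just miss it, and the intervals of Rps6ka1, Rps6ka4, Rps6kc1 and Rps6kl1 include 0.

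Divided by exon length, the members fell into levels that were ordered alike in both groups except for *Rps6ka3*. In controls, *Rps6ka3* was at 9.38 ± 1.26, *Rps6ka4* at 8.47 ± 0.153 and *Rps6ka1* at 7.83 ± 0.729 CPM per kilobase (SD, n = 3), and the libraries of neighbours in this order overlapped. *Rps6kb1* followed at 6.36 ± 0.0648, separate from those above it. *Rps6kb2* at 2.29 and *Rps6kc1* at 2.11 overlapped, as did *Rps6ka2* at 1.95 and *Rps6ka6* at 1.93, and *Rps6ka5* at 0.62 and *Rps6kl1* at 0.218 came last. In the mutants, *Rps6ka4* was at 9.1, *Rps6ka1* at 7.94 and *Rps6ka3* at 6.14 CPM per kilobase, so that *Rps6ka3* moved from first to the third place. As a description, the sum of all members per kilobase was 40.6, 41.3 and 41.6 in the controls and 38.7, 37.5 and 35.7 in the mutants. *Rps6ka3* made up 22.8% of the control sum and 16.5% of the mutant sum, *Rps6kb1* 15.5% and 12.8%, and *Rps6kb2* 5.57% and 10.8%.

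**Figure D3:**
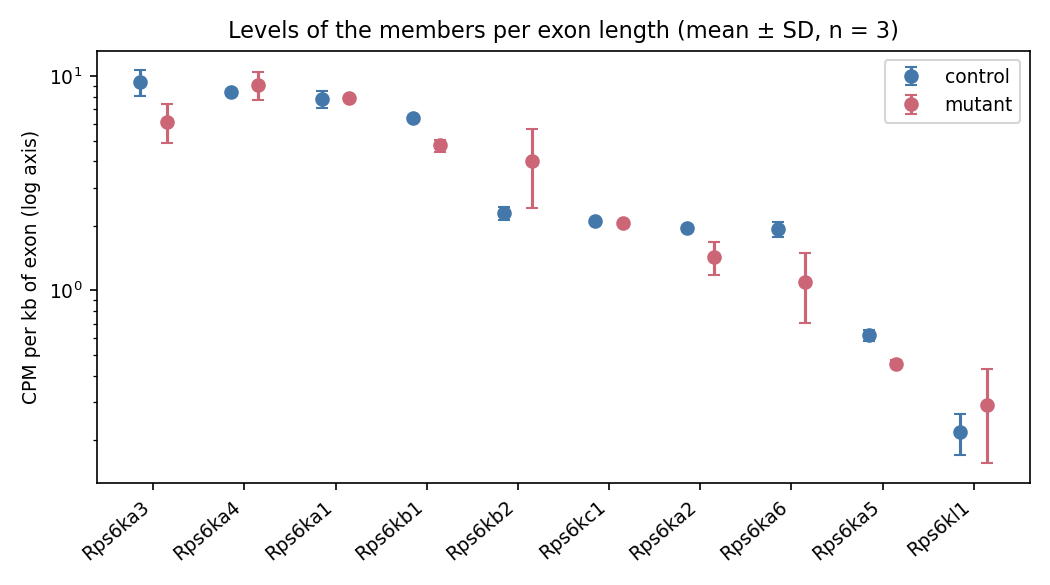
Level of each member in CPM per kilobase of exon on a log axis, with points for the mean and bars for the SD of the 3 control and 3 mutant libraries. Rps6ka3, Rps6ka4 and Rps6ka1 are highest in the controls, and Rps6ka5 and Rps6kl1 are lowest.

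The share of G and C in the longest transcript moved with these differences. The 4 members that fell are the 4 with GC in the lowest quintile of all genes tested, with 39.2% in *Rps6kb1*, 39.7% in *Rps6ka6*, 40.5% in *Rps6ka3* and 42.7% in *Rps6ka5*. The other 6 members had between 49.2% (*Rps6kc1*) and 60.3% (*Rps6ka4*). Across the 10 members, log2 fold change and GC had a Pearson r of 0.75 and a Spearman rho of 0.74, as a description over genes that share libraries and are not independent replicates. Across 19314 genes the values were 0.21 and 0.33. In the lowest quintile, genes of 28.3% to 43.8% GC, the median log2 fold change was −0.27 and 21.9% of genes fell while 3.52% rose. In the highest quintile, the median was 0.21, and 2.9% fell while 18.4% rose.

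The pattern was present in each library. For genes of the lowest GC quintile, the median deviation from the mean of all libraries was 0.09, 0.18 and 0.17 (log2) in the controls and −0.14, −0.18 and −0.07 in the mutants, and for the highest quintile −0.07, −0.13 and −0.11 against 0.1, 0.18 and 0.04. Mutant 2 stood farthest from the controls, and it held the lowest of the mutant values for 6 of the 10 members. With an offset for GC fitted in each library, none of the 4 members that fell passed: *Rps6kb1* was at −0.08 (edgeR adjusted p = 0.534), *Rps6ka3* at −0.31 (0.172), *Rps6ka6* at −0.50 (0.155) and *Rps6ka5* at −0.22 (0.218). *Rps6ka2*, with 54.3% GC, was at −0.59 with this offset and passed (edgeR adjusted p = 0.0363). *Rps6kb2*, with 55.6% GC, was at 0.63 with this offset (edgeR adjusted p = 0.0896). Length moved with the fold change as well: the longest quintile of genes had a median of −0.19 and the shortest 0.19, and among members the Pearson r with log2 length was −0.5. With an offset for length alone, *Rps6ka2* was at −0.26 and did not pass (edgeR adjusted p = 0.141). With offsets for both GC and length it was at −0.44 and just missed the threshold (edgeR adjusted p = 0.0504).

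**Figure D4:**
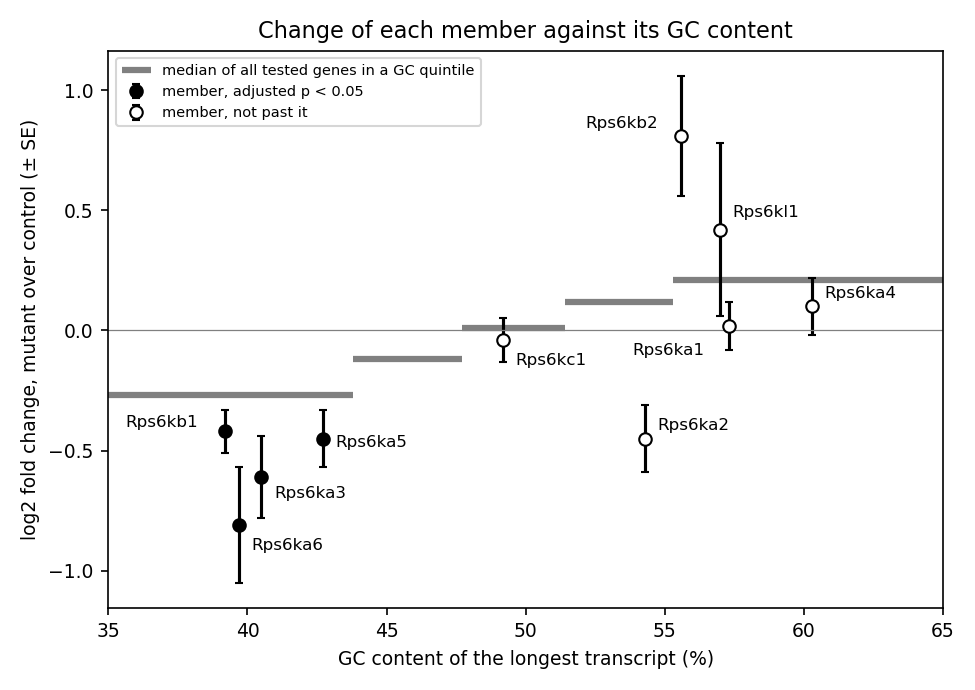
Log2 fold change, mutant minus control, of the 10 members against the GC share of their longest transcript in percent, with bars of ± SE and horizontal bars for the median of all tested genes in each GC quintile, the outer of which run on past the axis. The 4 members that fell lie below 43.8% GC, at the end where the median of all genes is −0.27.

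**Figure D5:**
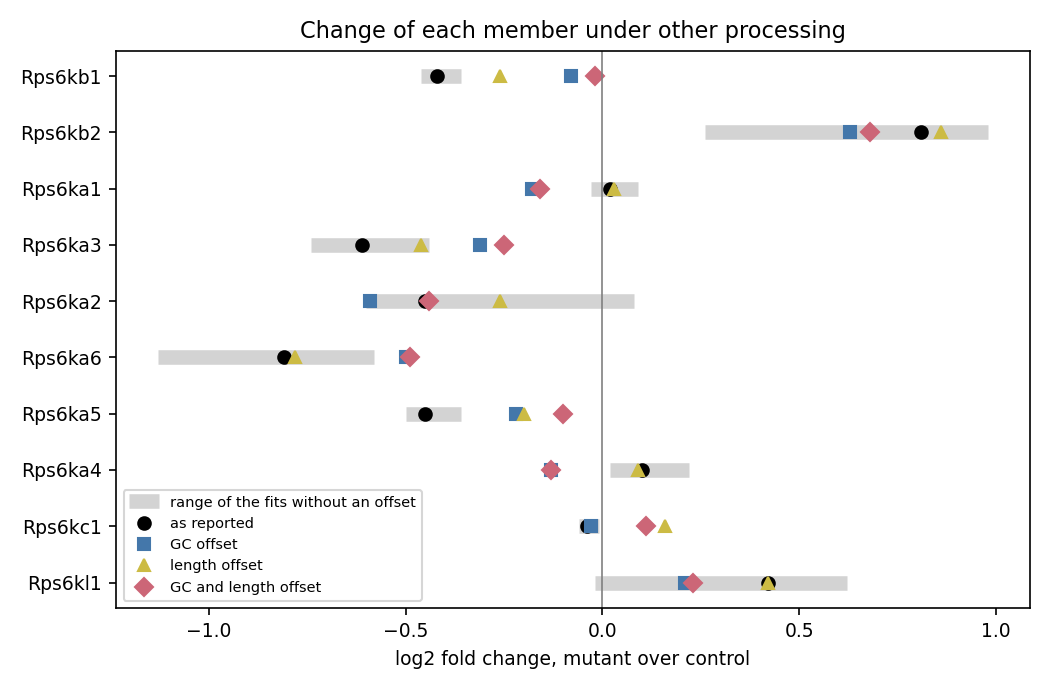
Log2 fold change of each member as reported and with offsets for GC, for length and for both, with a grey band for the range of the fits without an offset. The values of Rps6kb1 move from −0.42 to −0.08 with the GC offset and to −0.02 with both offsets. Rps6ka2 moves from −0.45 to −0.59 with the GC offset, to −0.26 with the length offset and to −0.44 with both.

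Upstream of the start site, the members differed in base composition as well. RefSeq entries on GRCm38.p6 were found for 8 of the 10 members, and 250 bases before the start were searched on both strands. *Rps6kb1* held 17 CG pairs and *Rps6ka6* 4, against a median of 6 over all 32851 entries, and the other 6 held 30 in *Rps6ka1*, 25 in *Rps6ka5*, 19 in *Rps6ka2*, 18 in *Rps6ka4*, 18 in *Rps6kc1* and 5 in *Rps6kl1*. The RefSeq start of *Rps6ka5* lies 1863 bases from the gene's annotated start, against at most 9 bases for the others. Its window, and the matches in it, are therefore not placed like the others. The sequences of *Rps6kb1* and *Rps6ka6* are shown, since both fell and their starts lie within 2 bases of the gene's annotated start. Capitals mark matches to CGCATGC, the core of the NRF1 motif, or to CCAAT, and bases run 5′ to 3′ toward the start.
Rps6kb1, chr11:86544808-86545057, minus strand: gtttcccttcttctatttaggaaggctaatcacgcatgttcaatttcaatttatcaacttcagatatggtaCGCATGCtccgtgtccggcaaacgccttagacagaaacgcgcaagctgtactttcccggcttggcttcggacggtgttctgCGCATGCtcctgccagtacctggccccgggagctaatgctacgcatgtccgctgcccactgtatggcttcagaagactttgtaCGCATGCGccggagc
Rps6ka6, chrX:111537960-111538209, minus strand: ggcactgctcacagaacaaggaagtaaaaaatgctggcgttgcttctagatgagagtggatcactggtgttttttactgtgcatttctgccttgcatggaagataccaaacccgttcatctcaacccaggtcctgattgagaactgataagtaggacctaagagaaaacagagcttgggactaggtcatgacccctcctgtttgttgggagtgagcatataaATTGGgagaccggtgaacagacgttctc
*Rps6kb1* held 4 matches to CGCATGC, a pair of which overlap on opposite strands, and no other member held any, against 3.02% of all entries. This motif was chosen after the sequences were seen. CCAAT was found in *Rps6ka1*, *Rps6ka2*, *Rps6ka6*, *Rps6ka5* and *Rps6kl1*, and in 33.8% of all entries. The Sp1 box GGGCGG was found in *Rps6ka1*, *Rps6ka2*, *Rps6ka5*, *Rps6ka4* and *Rps6kc1*, and in 32.7% of all entries. The Ets core CCGGAAGT was found in *Rps6kc1*, and in 2.88% of all entries. The CRE TGACGTCA and the E-box CACGTG, held by 1.55% and 6.02% of entries, were not found in these windows.

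Of 12 upstream activators of the S6 kinases, 1 rose and 1 fell. *Lamtor1*, a subunit of the Ragulator complex that recruits mTORC1 to lysosomes, rose from 38.5 ± 3.01 to 51.1 ± 3.98 CPM (SD, n = 3, log2 fold change 0.41, edgeR adjusted p = 0.0281). *Cdc42*, a small GTPase, was counted at 260, 256 and 249 CPM in controls and 203, 177 and 207 CPM in mutants, and fell (−0.38, edgeR adjusted p = 0.0389). *Pik3ca*, a catalytic subunit of PI3 kinase, was at −0.38 (edgeR adjusted p = 0.0676) and *Mtor* at −0.29 (edgeR adjusted p = 0.0907). The median of the list was −0.24. Of 10 brakes on the pathway none passed, with *Tsc1* at 0.39 (edgeR adjusted p = 0.0713), *Deptor* at −0.47 (edgeR adjusted p = 0.0949) and *Ppp2r1a* at 0.24 (edgeR adjusted p = 0.111), and the median was −0.06.

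Of 14 S6 kinase substrates, 1 rose and 2 fell, with a median of −0.08. *Rps6*, ribosomal protein S6 itself, was counted at 73.6, 63.6 and 65.2 CPM in controls and at 31.1, 29.2 and 30 CPM in mutants. It fell by 1.16 on the log2 scale (edgeR adjusted p = 0.000239), but 42.2% of its 75-base stretches are shared with other genes and the value is uncertain. *Cad*, the enzyme that begins pyrimidine synthesis, fell from 52.2 to 37.7 CPM (−0.47, edgeR adjusted p = 0.0257), and *Poldip3*, also called SKAR, rose from 76.1 to 92.1 CPM (0.28, edgeR adjusted p = 0.048).

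Of 16 kinases and regulators upstream of RSK and MSK, 1 rose and 1 fell, with a median of −0.04, and both encode MAP kinase kinases. *Map2k2*, encoding MEK2, was counted at 85.3, 76.9 and 77 CPM in controls and 108, 109 and 108 CPM in mutants (log2 fold change 0.44, edgeR adjusted p = 0.0148). *Map2k1*, encoding MEK1, was counted at 49.7, 46.6 and 46.5 CPM in controls and 32.9, 26.3 and 36.3 CPM in mutants (−0.58, edgeR adjusted p = 0.0184).

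Of 19 RSK and MSK substrates, 1 rose and 4 fell, with a median of −0.16. *Creb1*, the transcription factor CREB, fell from 66.6 ± 6.86 to 39.2 ± 8.32 CPM (SD, n = 3, −0.76, edgeR adjusted p = 0.0155), and *Bub1*, a kinase of the spindle checkpoint, from 4.46 to 2.18 CPM (−1.03, edgeR adjusted p = 0.0054). *Hmgn1*, a nucleosome-binding protein, was at −0.43, the *Rps6* value given above belongs to this list as well, and *Rela*, the p65 subunit of NF-κB, rose by 0.32 on the log2 scale. Of 35 other AGC kinases tested, none rose and 4 fell, with a median of −0.25. *Prkg1*, a cGMP-dependent kinase, was at −0.95 (edgeR adjusted p = 0.0202), *Prkaca*, a catalytic subunit of PKA, at −0.34 (0.0337) and *Prkca*, a protein kinase C, at −0.59 (0.0445). A negative log2 fold change was found in 68.6% of these AGC kinases and in 60% of the S6 kinase and RSK members, against 49.3% of all genes tested. Of the genes named in these lists, *Creb1*, *Bub1*, *Prkg1* and *Cdc42*, which fell, lie in the lowest GC quintile (39.6% to 42.6%). *Map2k2* (60.4%) and *Rela* (59.4%), which rose, lie in the highest, as do *Rps6* (58.9%) and *Cad* (57.4%), which fell. Between these quintiles lie *Prkca* (46.4%), *Hmgn1* (46.9%), *Map2k1* (51.2%) and *Prkaca* (54.9%), which fell. *Lamtor1* (48.9%) and *Poldip3* (53.4%), which rose, lie between them as well. The part of GC in the change of each of these genes was not tested.

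Across the 6 libraries, the profile of *Rps6kb1* was most like those of *Gm26669*, *Cbx3-ps6*, *Gm19587*, *Rap2c* and *Gm6929*, with a Pearson r of log2 CPM between 0.9966 and 0.9992. These genes were picked as those with the highest r among the tested genes outside the family. At a looser cut, 761 genes, 3.94% of those tested, had an r of at least 0.95 to *Rps6kb1*. Within the family the r to *Rps6kb1* was 0.96 for *Rps6ka5*, 0.92 for *Rps6ka3*, 0.9 for *Rps6ka2*, 0.9 for *Rps6ka6* and −0.89 for *Rps6kb2*. It was −0.17 for *Rps6ka1*, −0.36 for *Rps6ka4* and −0.6 for *Rps6kl1*. For *Rps6kc1* it was 0.84, although its log2 fold change was only −0.04. These are descriptions over libraries that differ between groups.

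The libraries held between 56134770 and 62628940 estimated counts. *Ror2* was counted at 38.2, 36.2 and 36.7 CPM in controls and at 27.9, 28.1 and 26.3 CPM in mutants, summed over all its exons (log2 fold change −0.43, edgeR adjusted p = 0.0134). Mutant 2 stood apart from the other mutants on the second principal component, at 50.6 against −28.1 and −34.9, which held 16.6% of the variance. In tissue labelled dental pulp, the summed 9 markers of dental epithelium, enamel genes among them, reached 172000 to 192000 CPM in controls and 185000 to 256000 CPM in mutants. The 12 markers of dental mesenchyme summed to 1210 to 1520 and 1190 to 1450 CPM, and the 6 odontoblast markers to 14800 to 46800 and 13300 to 36100 CPM. All 6 skeletal muscle markers fell, from sums of 10.4 to 35.9 to sums of 2.6 to 3.49 CPM, and 2 of 5 erythroid markers fell. No marker of the summed lists was at 0 in all libraries. Their part in the members' differences was not tested, and fewer cells of a type cannot be told apart from less RNA per cell.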

How the data were processed

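RNA-seq of 3 control (*Ror2fl/fl*) and 3 mutant (*Osr2-Cre;Ror2fl/fl*) libraries was used. The authors deposited estimated counts per gene, not normalized, from single-end reads of 75 cycles; TopHat and mm10 are given in the methods, STAR 2.6.1d and Partek in the submitters' processing notes. The deposited normalized signal is the estimated count plus 1 times a factor per library. The counting program, strand use and gene annotation are not given in the sources used here. The count table holds 6 columns of samples that no label assigns to these groups, and they were not used. Counts were rounded, since the design had assumed whole counts, kept by filterByExpr and tested with edgeR 4.0.16 (quasi-likelihood, TMM, Benjamini-Hochberg) over 19330 genes in R 4.3.3. DESeq2 1.42.0 and limma 3.58.1 gave alternatives. GC of the longest transcript and exon length were taken from GENCODE M21, which matched 27484 of 27506 genes, and offsets were loess fits in each library with a span of 0.3. Genes named besides the members are *Ror2*, *Rps6*, the 3 genes of smallest p in each list (some are not reported here), the 5 most like *Rps6kb1*, and, chosen after their values were seen, *Hmgn1*, *Rela*, *Prkca*, *Mtor* and neighbours that share sequence. Sums with genes that overlap a member or share at least 20 of its 75-base stretches were added after seeing the data. The members and gene lists were chosen with earlier results of these data known. The scripts were tested on simulated counts.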

Additional observations from a re-analysis of the deposited data

How the results depend on the processing

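The number of members that fell was 4 as reported. It became 2 with no filter on low counts, and 2 on the normalized table with a pseudocount of 1. With the GC offset it was 1, *Rps6ka2*, which is not among the 4 as reported. With the length offset it was 1, with both offsets 0, and with 1 library left out 0 to 4. It was 5 with DESeq2, edgeR's likelihood ratio test, limma voom or the stricter filter, with *Rps6ka2* added to the 4. With no member higher as reported, 1 was higher with DESeq2, edgeR's likelihood ratio test, limma voom, RLE size factors, library size alone, the stricter filter or the length offset, and 0 to 1 with 1 library left out. Over all genes, the 3906 calls became 6341 with voom, 5410 with DESeq2 and 872 to 5001 with 1 library left out. The 15 genes of the pathway lists became 29 with DESeq2 and 11 with the GC and length offset. The sign turned for *Rps6ka1* with library size alone (0.00), the GC offset (−0.18), both offsets (−0.16) and 1 library left out (−0.03 to 0.09), for *Rps6ka4* with the GC offset (−0.13) and both offsets (−0.13), for *Rps6kc1* with the length offset (0.16) and both (0.11), and for *Rps6kl1* with 1 library left out (−0.02 to 0.62); the cause was not tested. Summed with genes sharing its sequence, chosen after seeing the data, *Rps6ka2* was at 0.08, a turn that came from the rise of *Usmg5* in the sum.

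The sample index gave a replicate block, although libraries of the same index did not deviate together (r of −0.1, −0.08 and 0). The labels do not state that libraries of the same index are paired. With the replicate block 1 member fell and 2013 genes passed, and with the block and the GC offset 0 members fell, 1324 genes passed, and *Rps6ka1* was at −0.18 and *Rps6ka4* at −0.13. *Rps6kb1* and *Rps6ka3* each passed in 14 of 21 alternatives, *Rps6ka6* in 10 and *Rps6ka5* in 7. Of the members that just missed the threshold as reported, *Rps6kb2* passed as higher in 9 and *Rps6ka2* as lower in 6. With 3 libraries per group and 44 to 110 counts per library, *Rps6kl1* had the largest SE of the members, 0.36.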
